A study of Mus musculus with 6 samples.

Results

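The genes described are Olig1, Olig2, Nkx2-2, Pou3f2 and Sall2, 5 of the 45038 rows of an FPKM table, taken by gene symbol as transcription factors of oligodendrocyte progenitors and of glioma stem cells. All 5 were found, each in 1 row. FPKM is the number of sequenced fragments of a gene divided by its length and by the size of the library, so levels of different genes can be compared per length. The table covers 3 circulating tumor cells (CTCs), which are tumor cells carried in the blood, and 3 tumor cells, with 1 of each kind from mice 1157, 1168 and PDGF1. The sample titles add the letters GBM to the tumor cells, the source label writes single-cell for the CTCs alone, and the labels used here give no strain, genotype, age or treatment for any of the mice. If a tumor cell library held more than 1 cell, the share of cells with a transcript and its level per cell cannot be told apart. RNA was amplified in repeated rounds of reverse transcription and in vitro transcription before stranded libraries were made.

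Oligodendrocyte progenitors are dividing cells of the brain that can become myelin-forming oligodendrocytes. Olig1 and Olig2 are basic helix-loop-helix factors that lie side by side in the genome. Olig2 sets the lineage in the embryonic neural tube and keeps progenitors dividing, and Olig1 acts later, in maturation and repair of myelin. Nkx2-2 is a homeodomain factor that works with Olig2 when progenitors begin to mature. Pou3f2, also called Brn2, is a POU domain factor of neural progenitors, and Sall2 is a zinc finger factor. In human glioblastoma, OLIG2, POU3F2, SALL2 and SOX2 are known as a set of factors that can turn differentiated tumor cells back into stem-like ones.

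On GRCm38, Olig2 lies on chromosome 16 from 91225457 to 91228677 on the plus strand, in 2 exons. Olig1 follows it on the same strand from 91269772 to 91271933, in 1 exon, and 41095 bases separate them. Nkx2-2 lies on chromosome 2 from 147177546 to 147194243 on the minus strand, with 4 annotated transcripts of up to 3 exons. Pou3f2 is a single exon on the minus strand of chromosome 4, from 22482780 to 22488366. Sall2 lies on the minus strand of chromosome 14 from 52311172 to 52328762, with 2 annotated transcripts.

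Stretches upstream of a RefSeq start of Olig2 and of Nkx2-2 are shown because these were the regulators that differed most within mouse 1168. They come from RefSeq (GRCm38.p6), are written 5′ to 3′ on the strand of the gene, and end before the first annotated exon base of the gene in the window. Capitals mark CANNTG, the E-box that helix-loop-helix factors can bind, and CCAAT or its reverse complement. The Olig2 stretch is chr16:91225300-91225456 (plus strand), and the Nkx2-2 stretch is chr2:147186456-147186652 (minus strand). That place lies inside the annotated span of Nkx2-2, ahead of an internal start and not of the outermost 5′ end of the gene.
Olig2: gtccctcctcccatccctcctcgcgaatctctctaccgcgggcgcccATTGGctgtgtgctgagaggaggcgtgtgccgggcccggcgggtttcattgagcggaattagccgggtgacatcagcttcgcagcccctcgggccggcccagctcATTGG
Nkx2-2: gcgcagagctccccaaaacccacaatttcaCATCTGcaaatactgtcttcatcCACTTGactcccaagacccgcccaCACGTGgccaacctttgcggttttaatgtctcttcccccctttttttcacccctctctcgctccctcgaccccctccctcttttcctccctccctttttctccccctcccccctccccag
In the 250 bases before the RefSeq start, Nkx2-2 had 3 matches to CANNTG and 0 to CCAAT, and Olig2 had 0 matches to CANNTG and 2 to CCAAT, searched on both strands. Of 32851 mouse promoter windows of that length, 66.2% held CANNTG and 33.8% held CCAAT. A match to TATAAA, held by 12.4% of windows, was found in Olig2, 8 to 3 bases before the RefSeq start, and not in Nkx2-2. It lies past the first annotated exon base of Olig2 and so outside the stretch shown. The octamer ATGCAAAT, held by 1.60%, was found in neither. These matches are letters in a sequence and no measurement of binding.

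The cells differed widely in what their libraries held. Named protein-coding genes took 51.8%, 85.3% and 11.9% of the FPKM in the CTCs from mice 1157, 1168 and PDGF1, and 18.0%, 72.1% and 23.2% in their tumor cells. The low values of the table fall on steps, since 1 fragment is worth a fixed FPKM for a gene of a given length. Over single-transcript genes at fewer than 5.5 fragments, between 89.2% and 91.0% of values lay within 0.1 of a whole fragment in each cell. From these steps the libraries were estimated at 27550000, 31700000 and 42890000 fragments in the CTCs and at 11730000, 55980000 and 41120000 in the tumor cells, in the same order of mice. Fragments from amplified RNA are not independent molecules. Olfactory and vomeronasal receptor genes, which sensory neurons of the nose use, gave a measure of background. Their 99th percentile lay at 0.775, 0.129 and 2.71 FPKM in the CTCs and at 2.03, 1.23 and 7.16 FPKM in the tumor cells, again in that order.

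The first question was how much of each regulator each cell held. The cells of mouse 1168 held the most of each, except that Nkx2-2 in the tumor cell of that mouse was lower than in both cells of mouse 1157. All 5 regulators were at 1 FPKM or more in the CTC of mouse 1168 and 4 of 5 in its tumor cell. In mouse 1157 that held for 3 of 5 in the CTC and 2 of 5 in the tumor cell, and in mouse PDGF1 for 0 of 5 in both cells. Of the 44804 rows used, 2870, 9702 and 1486 reached 1 FPKM in the CTCs from mice 1157, 1168 and PDGF1. In their tumor cells 4078, 11239 and 3025 did, so these counts also follow the library.

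Olig1, the later-acting partner of Olig2, was at 4.22, 199 and 0.130 FPKM in the CTCs from mice 1157, 1168 and PDGF1, against 0.483, 138 and 0.148 FPKM in their tumor cells. Both cells of mouse 1168 stood far above the other 4, and the ranges of the groups overlapped. The estimated fragments behind these values were 226, 12364 and 11 in the CTCs and 11, 15303 and 12 in the tumor cells. The tumor cell of mouse 1168 thus held more Olig1 fragments in a deeper library at a lower FPKM. Group means were 67.7 ± 114 FPKM in CTCs and 46.4 ± 79.8 FPKM in tumor cells (SD, n = 3 each). A lincRNA gene on the opposite strand, Gm15966, overlaps Olig1 and in mouse 1157 had 1.76 FPKM in the CTC and was listed at 0 in the tumor cell.

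Olig2, the lineage factor, was at 1.95 and 42.5 FPKM in the CTCs from mice 1157 and 1168 and was listed at 0 in that of mouse PDGF1, against 1.58, 10.3 and 0.0324 FPKM in the tumor cells of mice 1157, 1168 and PDGF1. The last value stands for an estimated 3 fragments. The CTC of mouse 1168 held the highest level, its tumor cell the next, and the groups overlapped. The mean was 3.96 ± 5.52 FPKM in tumor cells (SD, n = 3), and the CTC values are given singly because 1 is listed at 0.

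Nkx2-2, the homeodomain partner, was at 2.10, 27.2 and 0.0390 FPKM in the CTCs from mice 1157, 1168 and PDGF1, against 1.46, 0.752 and 0.0408 FPKM in their tumor cells. The CTC of mouse 1168 was the only cell of the 6 above 3 FPKM, at an estimated 1656 fragments, against 81 in its tumor cell when the longest of the 4 transcripts was used. Means were 9.78 ± 15.1 FPKM in CTCs and 0.752 ± 0.711 FPKM in tumor cells (SD, n = 3 each), and the groups overlapped. A gene on the opposite strand inside the Nkx2-2 span, 6430503K07Rik, was in mouse 1168 at 6.90 FPKM in the CTC while the tumor cell had 0.997 FPKM. The sources used here do not give whether fragments were assigned by strand, and the part of these genes in the Olig1 and Nkx2-2 values was not tested.

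Pou3f2, the POU factor, was at 0.579, 3.17 and 0.318 FPKM in the CTCs from mice 1157, 1168 and PDGF1, against 0.870, 1.33 and 0.673 FPKM in their tumor cells. It had the narrowest spread over the 6 cells, about 10-fold from lowest to highest, and was the only regulator higher in the tumor cell of both mice 1157 and PDGF1. In mouse PDGF1 it was the highest of the 5, at an estimated 74 fragments in the CTC while the tumor cell had 149. The other 4 had at most 11 fragments in that CTC and at most 12 in that tumor cell. All of these lay under the receptor level of that cell.

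Sall2, the zinc finger factor, was at 0.162, 2.45 and 0.0101 FPKM in the CTCs from mice 1157, 1168 and PDGF1, against 0.0186, 2.20 and 0.0106 FPKM in their tumor cells. It was above 1 FPKM in mouse 1168 alone, at nearly the same level in both cells. The values of mouse PDGF1 stand for an estimated 2 fragments each, and that of the tumor cell of mouse 1157 for 1.

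**Figure D1:**
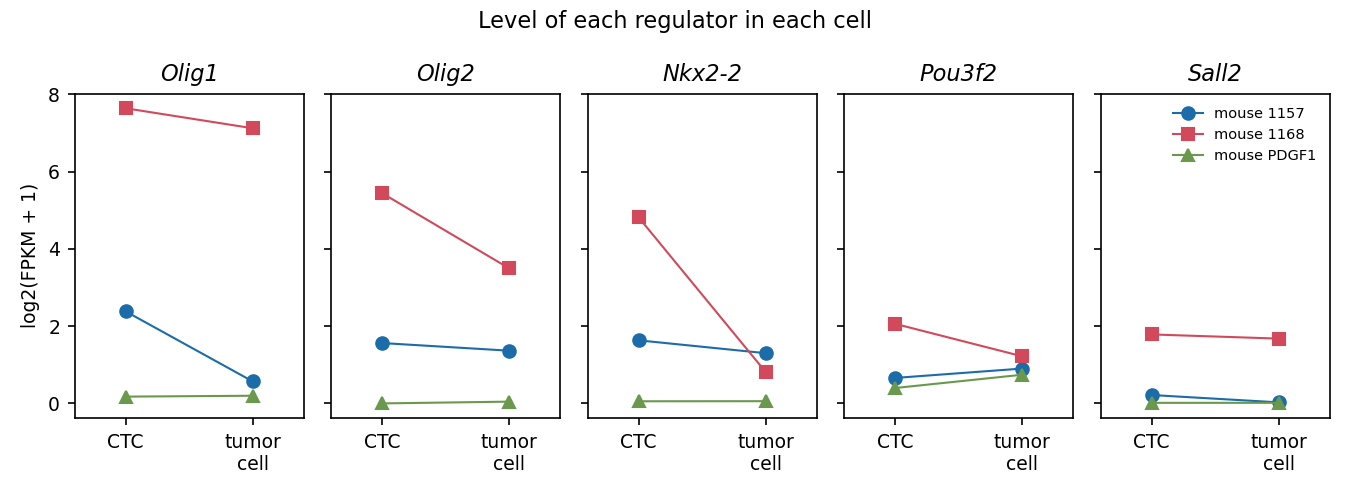
Level of each regulator as log2(FPKM + 1) on the vertical axis, for the CTC (left) and the tumor cell (right) of each mouse, joined by a line. The cells of mouse 1168 lie highest for Olig1, Olig2, Pou3f2 and Sall2, Nkx2-2 differs most between the cells of that mouse, and mouse PDGF1 is at or near 0 for all but Pou3f2.

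Set against the receptor level of the same cell, 5 of 5 regulators stood above it in the CTC of mouse 1168, and 4 of 5 in its tumor cell, where Nkx2-2 at 0.752 FPKM lay under 1.23. In the CTC of mouse 1157, Olig1, Olig2 and Nkx2-2 stood above it, and in the tumor cell of that mouse 0 of 5 did. In mouse PDGF1 0 of 5 did so in the CTC and 0 of 5 in the tumor cell. Levels in the tumor cell of mouse 1157 and in both cells of mouse PDGF1 were thus not distinguishable from this background. Of 15 housekeeping genes, 10, 15 and 0 stood above the receptor level in the CTCs from mice 1157, 1168 and PDGF1. In their tumor cells 5, 15 and 1 did. The low counts in mouse PDGF1 are thus not particular to the regulators.

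The order of the regulators was Olig1, Olig2, Nkx2-2, Pou3f2 and Sall2 from high to low in the CTC of mouse 1168, and Olig1, Olig2, Sall2, Pou3f2 and Nkx2-2 in its tumor cell. In the CTC of mouse 1157 Nkx2-2 stood just ahead of Olig2, and in its tumor cell Olig1 stood above Sall2 alone. Over the 3 cells of a group, neighbours in these orders had overlapping ranges. The ratio of Olig1 to Olig2, in FPKM, was 4.67 in the CTC of mouse 1168 and 13.5 in its tumor cell, and that of Olig2 to Nkx2-2 was 1.56 in the CTC while the tumor cell had 13.7.

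The second question was whether CTCs and tumor cells differ over the 3 mice. Olig1, Olig2 and Nkx2-2 had higher mean levels in CTCs, Pou3f2 and Sall2 differed by little, and no difference passed a test. On the log2(FPKM + 1) scale, which understates differences of low genes, the CTC minus tumor cell difference was 1.45 for Nkx2-2 (SE 1.37, limma, adjusted p = 0.99994), 0.77 for Olig1 (SE 2.95) and 0.70 for Olig2 (SE 1.94), with the same adjusted p for all 3. Pou3f2 and Sall2 did not reach 1 FPKM in 3 cells, the level set for this fit. They differed by 0.08 and 0.10, with p = 1 and p = 0.7 in an exact permutation test, two-sided, whose smallest possible p at this size is 0.1. Limma called 0 of 3 tested regulators, and 0 of 4165 genes (0%), with 7 genes at an unadjusted p under 0.05, so the count says nothing particular to the regulators. Ranges did not separate for any of the 5, and 0.264% of the 4165 genes lay fully above in CTCs. With the mouse as a replicate block, 1 of 4165 genes passed (0.0240%), the small nucleolar RNA Snora2b and none of the 5. There Nkx2-2 had the smallest unadjusted p of the regulators in the fit, at 0.0484, where 217 of the 4165 genes had one under 0.05, with an SE of 0.73 and an adjusted p of 0.935 (limma). That SE follows the trend over genes, and the Nkx2-2 differences within the 3 mice had an SD of 2.23, so this p understates their spread.

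Within mice the direction was not the same for all. The CTC was higher in 2 of 3 mice for Olig1, Olig2, Nkx2-2 and Sall2 and in 1 of 3 for Pou3f2. Mouse PDGF1 gave the opposite sign for each of the first 4, at no more than 0.05 on the log2 scale, and 3 of these signs turned under another scaling. Rescaled over named protein-coding genes, Olig1 and Nkx2-2 were both at 0.85 and Sall2 at 0.58 in that mouse, while Olig2 was at -1.90. The mean of the Nkx2-2 differences was 1.45 ± 2.23 (SD, n = 3 pairs) and rested mainly on mouse 1168, at 4.01, against 0.33 in mouse 1157. Without the CTC of mouse 1168 the mean differences were -1.35 for Olig1, -0.85 for Olig2 and 0.12 for Nkx2-2 while the high tumor cell of that mouse stayed in. Without both cells of mouse 1168 they were 0.90 for Olig1, 0.076 for Olig2 and 0.17 for Nkx2-2. Without the tumor cell of mouse PDGF1, Olig1 and Olig2 were at -0.45 and -0.09, and without that of mouse 1157 Olig1 was at -0.26 and Sall2 at -0.17. Olig2 also turned to -1.02 when FPKM was rescaled over named protein-coding genes.

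The third question was what each mouse shows by itself, where 1 cell stands against 1 cell and no test can be made. In mouse 1168 all 5 regulators had a higher FPKM in the CTC, though Sall2 turned round when rescaled over named protein-coding genes and Olig1 under quantile normalization. The log2 differences were 4.01 for Nkx2-2, 1.95 for Olig2, 0.84 for Pou3f2, 0.52 for Olig1 and 0.11 for Sall2. As CTC over tumor cell ratios of FPKM these are 36.2-fold, 4.14-fold, 2.39-fold, 1.44-fold and 1.11-fold. The Nkx2-2 ratio divides by a tumor cell value under the receptor level of that cell, so its size is uncertain. Olig2 and Nkx2-2 were higher by at least 1, which is 2 of 5, where 22.7% of the 12396 genes measured in that mouse were. A gene counts as measured at 1 FPKM or more in either cell. Of those genes, 99.2% had a lower difference than Nkx2-2, 92.4% than Olig2, 73.2% than Pou3f2, 64.1% than Olig1 and 52.0% than Sall2. Both calls held under each scaling tried. Nkx2-2 was at 4.06 and Olig2 at 1.53 with FPKM rescaled over named protein-coding genes, where the median of all measured genes lay at -0.40. With quantile normalization they were at 2.0 and 1.04.

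In mouse 1157 Olig1 differed most of the 3 regulators at 1 FPKM or more in a cell, at 8.74-fold higher FPKM in the CTC, or 1.82 on the log2 scale, on the 226 estimated fragments (CTC) and 11 (tumor cell) given above. Olig2 and Nkx2-2 differed by 0.20 and 0.33, with 1.24-fold and 1.44-fold higher FPKM in the CTC. Olig1 alone, 1 of the 3 measured, was higher by at least 1, where 29.0% of 5961 measured genes were. Of 11 housekeeping genes measured in that mouse, 6 were higher in the CTC by as much, and their median was 1.93. The share of FPKM in protein-coding genes differs between these 2 cells, as does the summed FPKM of all rows, at 236427 (CTC) and 80273 (tumor cell). The rescaled values depart from the plain ones. Rescaled so that named protein-coding genes sum to 1000000 FPKM in each cell, Olig1 was at 34.5 in the CTC while the tumor cell had 33.5, Olig2 at 16.0 in the CTC while the tumor cell had 109, and Nkx2-2 at 17.2 in the CTC while the tumor cell had 101, so that the last 2 turned round. In the tumor cell all 3 stood under the receptor level.

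In mouse PDGF1 0 of 5 regulators were measured, so none could be counted beside the 23.7% of 4042 genes that were higher by at least 1 in its CTC. On the log2(FPKM + 1) scale Pou3f2 had the largest difference there, at -0.34, on the 74 fragments (CTC) and 149 (tumor cell) given above. Rescaled over named protein-coding genes it stood at 57.1 (CTC) and 56.6 (tumor cell), a difference of 0.013, so that all but Olig2 turned round in this mouse. Olig1 had 11 fragments (CTC) and 12 (tumor cell), which differ by less than the counting error of such numbers.

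**Figure D2:**
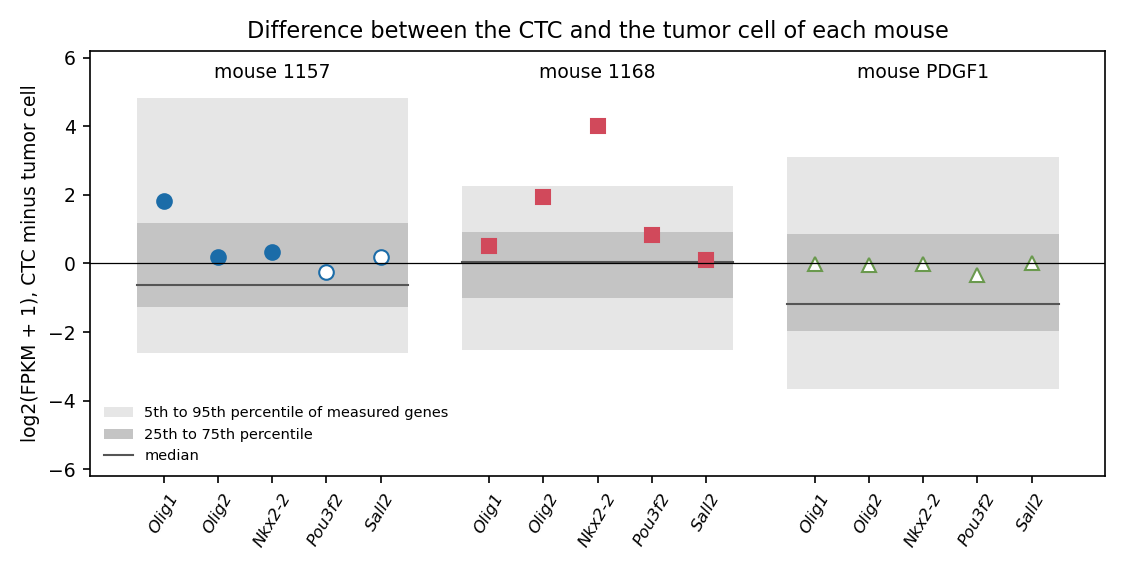
Difference in log2(FPKM + 1), CTC minus tumor cell, of each regulator in each mouse. Filled points are at 1 FPKM or more in a cell of that mouse and open points are not, and the bands give all measured genes of the mouse. Nkx2-2 in mouse 1168, at 4.01, is the only point outside the 5th to 95th percentile band.

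Ranks within a cell do not depend on the scale of the library. Among named protein-coding genes other than the receptors, Olig1 stood above 97.6% in the CTC of mouse 1168 and above 97.6% in its tumor cell, with 420 genes above it (CTC) and 419 (tumor cell). Nkx2-2 stood above 88.1% (CTC) and 43.0% (tumor cell), and Olig2 above 91.4% (CTC) and 79.8% (tumor cell). Pou3f2 stood above 63.9% (CTC) and 49.6% (tumor cell), and Sall2 above 61.2% (CTC) and 56.7% (tumor cell). The rank of Olig1 was thus the same in both cells, and the other 4 ranked higher in the CTC. The CTC also had more of these genes listed at 0, at 21.8%, than the tumor cell, at 11.2%, and genes at 0 lie below any regulator that is detected. In mouse 1157 Olig1 stood above 96.0% (CTC) and 67.7% (tumor cell), Nkx2-2 above 94.0% (CTC) and 88.4% (tumor cell), and Olig2 above 93.6% (CTC) and 89.2% (tumor cell). There the CTC had 9.80% of genes at 0 and the tumor cell 16.7%.

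**Figure D3:**
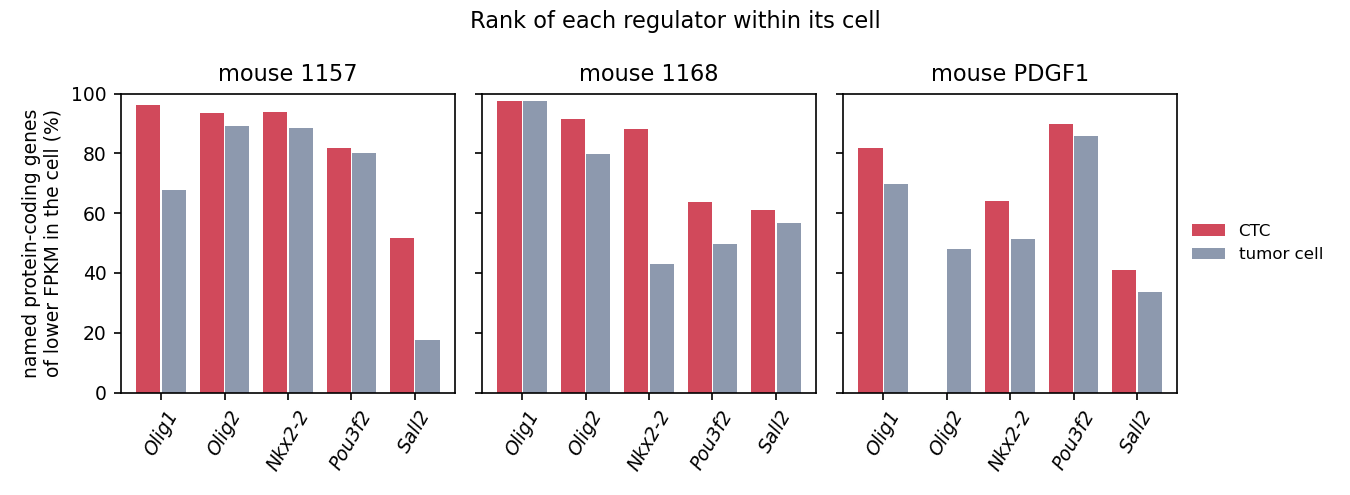
Percentage of named protein-coding genes, receptors left out, with a lower FPKM than each regulator in the same cell, for the CTC (left bar) and the tumor cell (right bar) of each mouse. Olig1 is at 97.6% in both cells of mouse 1168, Nkx2-2 is at 88.1% in its CTC and 43.0% in its tumor cell, and Olig2 has no bar in the CTC of mouse PDGF1, where it is listed at 0.

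Relatives of the 5 factors were mostly low. Of 13 paralogs in the same families, 3 were at 1 FPKM or more in the CTC of mouse 1168 and 2 in its tumor cell. Pou3f3, a POU factor of cortical neurons and progenitors, had 15.5 FPKM (CTC) and 2.98 FPKM (tumor cell) in that mouse. Pou3f1, known from Schwann cells, had 6.18 FPKM (CTC) and 2.85 FPKM (tumor cell) there. Pou3f1 and Pou3f3 thus exceeded Pou3f2 in each cell of mouse 1168. Sall3, a zinc finger relative of Sall2, had 3.73 FPKM (CTC) and 0.966 FPKM (tumor cell). In mouse 1157 Pou3f1 had 10.0 FPKM (CTC) and 0.843 FPKM (tumor cell), and Pou3f3 2.99 FPKM (CTC) and 0.460 FPKM (tumor cell). The remaining paralogs that reached 1 FPKM did so outside mouse 1168. Olig3, a relative from the dorsal neural tube, had 7.93 FPKM in the CTC of mouse PDGF1 and was listed at 0 in its tumor cell. In the same mouse Sall4 had 1.22 FPKM (CTC) and 0.268 FPKM (tumor cell), and Pou3f4 0.0678 FPKM (CTC) and 1.12 FPKM (tumor cell). In mouse 1157 Nkx6-2 had 0.0668 FPKM (CTC) and 2.11 FPKM (tumor cell), and Bhlhe22 0.590 FPKM (CTC) and 1.06 FPKM (tumor cell). Of these highest values Olig3 and Nkx6-2 stood above the receptor level of their cell, and Sall4, Pou3f4 and Bhlhe22 did not. In limma 2 paralogs were tested, with 2 positive differences, 0 passed, and the median was 1.24.

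Of the other transcription factors of glioma stem cells, 7 of 19 measured in mouse 1168 had a CTC level higher by at least 1 and 1 a lower one, where 22.7% of all measured genes of that mouse were higher and 24.9% lower. The median of 0.82 stands beside 0.04 over all measured genes of that mouse. Sox2, which binds DNA with POU factors, had 129 FPKM (CTC) and 64.8 FPKM (tumor cell). Sox4, of neural progenitors, had 100.4 FPKM (CTC) and 50.0 FPKM (tumor cell), and Nfib, a factor of glial differentiation, 25.4 FPKM (CTC) and 14.3 FPKM (tumor cell). Hes6, which relieves the block that Notch signalling puts on neural differentiation, had 56.8 FPKM (CTC) and 15.7 FPKM (tumor cell). Sox6, which holds progenitors immature, went the other way, with 2.39 FPKM (CTC) and 3.35 FPKM (tumor cell). In mouse 1157 Hes6 had 659 FPKM (CTC) and 0.455 FPKM (tumor cell), and Sox6 13.3 FPKM (CTC) and 0.781 FPKM (tumor cell). In mouse 1157 the list median was -0.03, as 3 of 8 measured were higher and 1 lower by at least 1. All measured genes of that mouse had a median of -0.62, with 29.0% higher and 37.1% lower. In mouse PDGF1 the list median was -1.13, as 1 of 5 was higher and 3 lower. That is near the median of -1.18 over all its measured genes, of which 23.7% were higher and 59.9% lower. Over the 3 mice 6 of 7 tested members were positive and 1 negative, and 0 passed (limma). Their median was 0.71 with all 6 cells, where all 4165 genes had a median of -0.06 and 47.1% positive. Without the CTC of mouse 1168 the list median was -0.25, a setting for which no median over all genes is given. There the median of the housekeeping genes was -1.18, against 0.04 with all 6 cells.

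Surface and lineage genes of progenitors were mostly higher in the CTC of mouse 1168, as Olig2 and Nkx2-2 were. Of 16 measured, the CTC had 10 higher by at least 1 and 3 lower, with a median of 1.30, where 22.7% of all measured genes of that mouse were higher and 24.9% lower. Cspg5, a proteoglycan of progenitors, had 116 FPKM (CTC) and 23.7 FPKM (tumor cell), and Lhfpl3 39.5 FPKM (CTC) and 16.3 FPKM (tumor cell). Cacng4, a subunit that regulates glutamate receptors, had 26.4 FPKM (CTC) and 7.18 FPKM (tumor cell). Ptprz1, a receptor phosphatase, had 25.9 FPKM (CTC) and 7.85 FPKM (tumor cell). Sox10, a factor of the whole oligodendrocyte lineage that Olig2 acts on, went the other way, with 6.54 FPKM (CTC) and 18.3 FPKM (tumor cell). Gpr17 and Dll3 were lower in the CTC by more than Sox10. Gpr17 had 0.113 FPKM (CTC) and 10.3 FPKM (tumor cell), and Dll3 0.143 FPKM (CTC) and 8.43 FPKM (tumor cell). Bcan, a proteoglycan of the brain matrix, had 17.3 FPKM (CTC) and 3.78 FPKM (tumor cell). Over the 3 mice 4 of 5 tested members were positive and 1 negative, 0 passed (limma), and the median was 0.21. That median was -1.10 when FPKM was rescaled over named protein-coding genes, -0.07 with quantile normalization, -0.045 with a pseudocount of 0.1, -0.83 without the CTC of mouse 1168 and -0.81 without both its cells. In mouse PDGF1 5 members were measured, 1 higher and 3 lower by at least 1, where 23.7% of all measured genes of that mouse were higher and 59.9% lower. In mouse 1157 4 were measured, with 1 higher and 0 lower, where 29.0% of all measured genes were higher and 37.1% lower.

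Partners and cofactors were split in mouse 1168, where the CTC had 4 of 22 higher and 4 lower by at least 1, close to the shares over all measured genes (22.7% and 24.9%), with a median of 0.33. Tcf12, an E protein that pairs with helix-loop-helix factors such as Olig2, had 38.3 FPKM (CTC) and 11.7 FPKM (tumor cell). The Id genes, whose products keep E proteins from such pairing, differed from each other. Id3 had 30.9 FPKM (CTC) and 231 FPKM (tumor cell), and Id2 had 94.1 FPKM (CTC) and 75.6 FPKM (tumor cell). Of the histone-binding subunits of corepressor complexes, Rbbp4 had 234 FPKM (CTC) and 108 FPKM (tumor cell), and Rbbp7 71.6 FPKM (CTC) and 115 FPKM (tumor cell). Mta2, a subunit of the NuRD complex, had 4.84 FPKM (CTC) and 2.06 FPKM (tumor cell). In mouse 1157 Rbbp4 had 372 FPKM (CTC) and 2.26 FPKM (tumor cell). Over the 3 mice 7 of 12 tested members were positive and 5 negative, 0 passed (limma), with a median of 0.22. That median turned to -0.77 when FPKM was rescaled over named protein-coding genes and to -0.88 without the CTC of mouse 1168.

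Genes of maturing oligodendrocytes differed among themselves in mouse 1168. Of 7 measured the CTC had 1 higher and 3 lower by at least 1, with a median of -0.32. Over all measured genes of that mouse 22.7% were higher and 24.9% lower by as much. Bcas1, which marks cells that have begun to make myelin, had 59.1 FPKM (CTC) and 4.71 FPKM (tumor cell). Cldn11, of myelin tight junctions, had 7.73 FPKM (CTC) and 31.1 FPKM (tumor cell). Mbp, of the myelin sheath, had 1.35 FPKM (CTC) and 6.87 FPKM (tumor cell), and Cnp, an enzyme of myelin, 9.79 FPKM (CTC) and 12.5 FPKM (tumor cell). Of these 4, Bcas1 was thus the one that was higher in the CTC. Over the 3 mice 2 were tested, 1 positive and 1 negative, and 0 passed (limma).

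**Figure D4:**
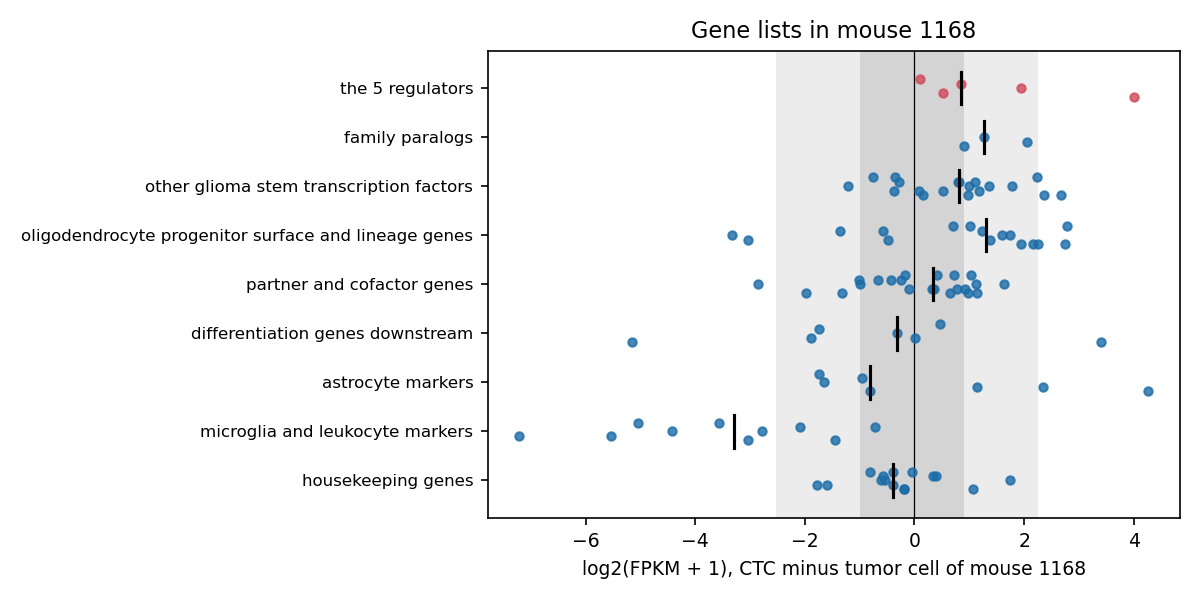
Difference in log2(FPKM + 1), CTC minus tumor cell of mouse 1168, for each measured gene (point) of each list, with the list median as a bar. The grey bands hold the 25th to 75th and the 5th to 95th percentile of all 12396 measured genes. The 5 regulators have a median of 0.84, progenitor surface and lineage genes of 1.30, and microglia and leukocyte markers of -3.30.

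Markers of other cell types moved with the comparison in mouse 1168. Of 16 microglia and leukocyte markers, the CTC had 4 at 1 FPKM or more and the tumor cell 10, and their summed level was 225 FPKM (CTC) and 2539 FPKM (tumor cell). Most of that was Lyz2, of macrophages, with 174 FPKM (CTC) and 1202 FPKM (tumor cell), and Ctss, a lysosomal protease, with 19.4 FPKM (CTC) and 672 FPKM (tumor cell). The lymphocyte marker Cd79a was listed at 0 in both cells, and Aif1, of microglia, at 0 in the CTC while the tumor cell had 7.21 FPKM. Of 10 endothelial and pericyte markers, the CTC had 1 at 1 FPKM or more and the tumor cell 4, with sums of 3.63 FPKM (CTC) and 35.0 FPKM (tumor cell). Astrocyte markers summed to 3127 FPKM (CTC) and 1489 FPKM (tumor cell), whereas the median difference of the 7 measured was -0.81, with 3 higher and 2 lower by at least 1. Most of the sum was Fabp7, which neural progenitors also use, with 2346 FPKM (CTC) and 1059 FPKM (tumor cell). Aldoc had 613 FPKM (CTC) and 30.9 FPKM (tumor cell), and Slc1a3 49.3 FPKM (CTC) and 8.94 FPKM (tumor cell). Fabp7, Aldoc and Slc1a3 were the 3 higher by at least 1. S100b, a calcium-binding protein, went the other way, with 108 FPKM (CTC) and 364 FPKM (tumor cell). Gfap, the filament of astrocytes, was listed at 0 in the CTC and had 0.609 FPKM in the tumor cell. Neuron markers summed to 70.4 FPKM (CTC) and 20.0 FPKM (tumor cell), of which Map2, a microtubule protein of dendrites, made 64.4 FPKM (CTC) and 12.5 FPKM (tumor cell), while Stmn2, of growing axons, had 0.072 FPKM (CTC) and 3.66 FPKM (tumor cell). Platelet and red cell markers summed to 72.4 FPKM (CTC) and 12.9 FPKM (tumor cell), of which Itga2b, a platelet integrin, made 68.0 FPKM (CTC) and 6.09 FPKM (tumor cell). Of these 11 markers, each of the cells had 2 at 1 FPKM or more, Itga2b and Gp1bb, and 6 listed at 0. Gp1bb went the other way, with 4.11 FPKM (CTC) and 6.62 FPKM (tumor cell). Of 15 housekeeping genes, the CTC had 2 higher and 2 lower by at least 1, with a median of -0.38. The part of other cells or of RNA quality in the differences of the regulators was not tested. In the other mice the microglia and leukocyte markers summed to 17.1 FPKM (CTC) and 16.2 FPKM (tumor cell) in mouse 1157 and to 3.66 FPKM (CTC) and 29.3 FPKM (tumor cell) in mouse PDGF1. Over the 3 mice 4 of 4 tested microglia and leukocyte markers were negative, with a median of -2.12, or 0.33 without the tumor cell of mouse 1168. Of the tested astrocyte markers 3 of 3 were positive, with a median of 0.61, or -1.91 without the CTC of mouse 1168. Positive differences were found for 2 of 3 neuron, 1 of 1 platelet and red cell and 7 of 11 housekeeping genes. Limma called 0 in each of these lists, and 0 endothelial or pericyte markers were tested.

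Genes whose levels over the 6 cells lay nearest to each regulator were sought among 17307 named protein-coding genes, by Euclidean distance on the log2(FPKM + 1) scale. Nearest to Olig1 were Mdh2, at a distance of 0.405, Cct8 (0.703) and Nxf1 (0.791). Mdh2, a mitochondrial malate dehydrogenase, was at 3.89, 163 and 0.243 FPKM in the CTCs from mice 1157, 1168 and PDGF1 and at 0.659, 129 and 0.264 FPKM in their tumor cells. Nearest to Olig2 were Stk39 (0.464), Vta1 (0.653) and Pus1 (0.686). Nkx2-2 had the most distant neighbours, Chadl (1.15), Smtn (1.20) and Paxbp1 (1.23). Chadl had 17.4 FPKM in the CTC of mouse 1168 and at most 1.49 FPKM in each of the other 5 cells. Nearest to Pou3f2 were Ncoa2 (0.487), Lrba (0.494) and Abca3 (0.548), and to Sall2 Nlrc5 (0.195), Kdelc1 (0.198) and Gtf3c4 (0.227). The mean of the 5 regulators lay nearest to Elk4 (0.482), Dcun1d1 (0.546) and Wdr46 (0.561). Among the regulators themselves, Pou3f2 and Sall2 were closest, at 1.39, and Olig2 lay nearer to Nkx2-2, at 2.76, than to its genomic neighbour Olig1, at 4.40. All of these distances count differences in level as well as in pattern over the cells, so 2 low genes can lie close. They rest on 6 libraries that differ widely in protein-coding share.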

How the data were processed

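Transcripts of 6 mouse cells were read from a table of FPKM values deposited by the authors. Per the submitters' processing notes, GRCm38, Cufflinks 2.2.1 and STAR 2.4.2a were used, and their annotation and filters are not given in the sources used here. Of 45038 rows, 27 with date-like names and 211 with repeated names were left out, with some rows of both kinds, which left 44804, of which 41450 matched GENCODE mouse release M21 on GRCm38. The members, lists and tests were chosen with earlier results of these data known.

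The test was limma 3.58.1 (R 4.3.3) with a mean-variance trend on log2(FPKM + 1), two-sided, over 4165 genes that reached 1 FPKM in 3 or more of the 6 cells, with Benjamini-Hochberg adjustment at 0.05. Its SEs follow the trend over genes. Regulators outside the fit had an exact permutation test. The groups were CTC (n = 3) and tumor cell (n = 3), the labels do not name separate cultures, and p-values measure the spread between cells of 3 mice. On simulated data for this comparison over 4165 genes, limma recovered 100% of differences of 2 and of 4 at a spread of 0.3, with 8 false calls, and 0% of either at the spread of these cells, so a missed threshold does not show that levels did not differ. Each mouse gave both cells, which pairs them by animal. Deviations from the group means correlated at 0.178, 0.689 and 0.428 between the cells of mice 1157, 1168 and PDGF1. Across mice, the CTC of mouse PDGF1 correlated at 0.422 with the tumor cell of mouse 1157, and the other pairs ran from -0.622 to 0.044.

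Library sizes were estimated by fitting the FPKM of genes at 1 fragment to transcript length, over single-transcript genes of at least 1000 bases, and fragments of a regulator from its longest transcript. Genes named were drawn from all 5 regulators, paralogs at 1 FPKM or more in a cell, of each list up to 4 of highest mean FPKM and up to 2 of smallest p, and the 3 nearest genes. A gene that this rule takes is not reported here. Tcf12, Sox10, Gpr17, Dll3, Cd79a, Aif1, Gfap, Gm15966, Snora2b and 6430503K07Rik were named after their values were seen. For 4 of 5 regulators RefSeq gave a promoter. Alternatives were pseudocount 0.1, a filter of 5 FPKM, no filter, quantile normalization, rescaling over named protein-coding genes, each cell or mouse left out, and the mouse as a block, with and without quantile normalization. Other steps and the figures used pandas 2.3.3, numpy 2.4.6, matplotlib 3.10.9 and scipy 1.17.1 under Python 3.11.15. Fragment estimates and the values within a mouse after rescaling were added after the data were seen.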

Additional observations from a re-analysis of the deposited data

How the results depend on the processing

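Limma called 0 genes under 14 of 16 alternatives. It called 1, Snora2b, a small nucleolar RNA listed at 0 in all 3 CTCs, when FPKM was rescaled over named protein-coding genes and when the mouse was a replicate block. The Nkx2-2 difference was positive under all 16 alternatives, with no adjusted p under the threshold. A filter of 5 FPKM, no filter and the mouse as a block keep its main value by construction, so they could not change its sign. The block with quantile normalization repeats the value of quantile normalization alone. When single cells or mice were left out, the differences ran from -1.35 to 3.02 for Olig1, from -0.85 to 1.87 for Olig2, from 0.12 to 2.50 for Nkx2-2, from -0.43 to 0.41 for Pou3f2 and from -0.46 to 0.65 for Sall2. The lowest value of each was without the CTC of mouse 1168. Where a group keeps 2 cells, the spread comes mostly from the trend over genes. Rescaling over named protein-coding genes gave -1.02 for Olig2 and -0.93 for Pou3f2, and a pseudocount of 0.1 gave -0.068 for Pou3f2. Pou3f2 was at -0.29 without both cells of mouse 1168. The causes were not tested. With the mouse as a block the 5 differences kept their values by construction, and none of the 5 passed. In mouse 1168 the count of regulators higher by at least 1 was 2, 3 with a pseudocount of 0.1, and 1 at a difference of at least 2. With a filter of 5 FPKM no regulator was in the fit. Of 110 medians of 7 gene lists recomputed, 99 moved by less than the spread between mice and 11 by more. Those with the mouse as a block could not move, and those with the block and quantile normalization repeat the quantile ones. The 99 thus overstates how stable the medians were. In mouse PDGF1 Sall2, Olig2 and Nkx2-2 rest on at most 3 estimated fragments a cell, which limits what can be said of them.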
